A study of Mus musculus with 32 samples.

Results

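The 341 regions described here are Oct4 peaks that were listed in both Taf5l-KO and Taf6l-KO mouse embryonic stem (ES) cells and not in wild-type cells. They were taken from the Oct4 list of Taf5l-KO cells on chromosomes 1 to 19. A peak was kept when at least 1 bp of it overlapped an Oct4 peak of Taf6l-KO cells and none of it overlapped an Oct4 peak of wild-type cells. They made up 341 of 2957 Taf5l-KO Oct4 peaks, a share of 11.5%, and 341 of the 390088 peaks in the 26 peak lists of the series. In the Taf6l-KO list of 2008 Oct4 peaks the same places were 342 peaks, and the wild-type list held 2502. The regions were selected on the presence of a listed Oct4 peak in the knockouts and its absence in wild type, so Oct4 strength is given below as a description only.

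The study used chromatin immunoprecipitation followed by sequencing (ChIP-seq) in the J1 line of mouse ES cells, grown in serum with LIF. Taf5l-KO cells, Taf6l-KO cells and wild-type cells were profiled for 7 targets with 1 library per target and genotype. Per the file headers, every library of a genotype was set against 1 input library of that genotype. Of these inputs, only that of wild type is among the 32 samples. Tagged TAF6L (TAF6L-FB) and TAF5L (TAF5L-FB) were pulled down with streptavidin in 2 lines each, all labelled wild type, with cells labelled BirA as control. Every group shares the J1 background, and the labels do not say how many clones stand behind each knockout.

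Oct4 is the POU-family transcription factor that, with SOX2 and NANOG, maintains pluripotency in ES cells, and it binds mostly at enhancers away from promoters. TAF5L and TAF6L are subunits of SAGA-type coactivator complexes, which acetylate histone H3 and help recruit the transcription machinery. H3K4me3 is a histone mark of promoters. RNA polymerase II was mapped with an antibody named RNAP and with antibodies labelled ser5 and ser2, after the phosphorylated serines of its tail that accompany early transcription and elongation.

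The Oct4 libraries held 7068955 unique tags in Taf5l-KO, 6628480 in Taf6l-KO and 8522959 in wild-type cells, and each was scaled down to its smaller input, so the wild-type library was the deepest of the 3 after scaling. With no replicate library in any genotype, no test between genotypes was possible. Each share carries its 95% interval, exact by the Clopper-Pearson method, in which neighbouring peaks count as independent and only counting error enters. Positions are in the mouse build mm9. No annotation or genome of that build was used here, so the regions carry no gene names and no sequence is shown, and neither the cell type nor the deletions were checked against marker genes.

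The regions were a minority among the peaks that set the knockouts apart from wild type. Of the 1471 Taf5l-KO Oct4 peaks outside the wild-type list, 23.2% (21 to 25.4) were also listed in Taf6l-KO, and the other 1130 were listed in Taf5l-KO alone. Seen from Taf6l-KO, they were 342 of 831 peaks outside the wild-type list, or 41.2% (37.8 to 44.6). A peak shared by any pair of the lists was often missing from the remaining one. Of the peaks shared by the knockouts 25.8% (23.5 to 28.2) lacked wild type, while 34.0% (31.6 to 36.5) of those shared by Taf5l-KO and wild type lacked Taf6l-KO, and 16.7% (14.6 to 18.9) of those shared by Taf6l-KO and wild type lacked Taf5l-KO. The absence from wild type was thus between the other 2 shares, and all 3 come from the same 3 lists.

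The gained peaks were weaker than the Oct4 peaks listed in all 3 genotypes and close in strength to other peaks shared by a pair of lists. Strength is the authors' fold enrichment, the height of a peak over its local background as estimated by the peak caller from the input. In Taf5l-KO the gained peaks had a lowest value of 3.87, a median of 8.24 and a highest value of 22.7, against a median of 11.1 and a highest value of 66.4 for the 981 peaks of that list found in all 3 genotypes. In Taf6l-KO the lowest, median and highest values of the gained peaks were 3.24, 7.85 and 21.4, against a median of 9.44 and a highest value of 41.4 for the peaks found in all 3. Peaks seen in 1 knockout alone were weaker still, with a median of 6.99 in Taf5l-KO, and 7.20 for those of Taf6l-KO. Peaks shared with wild type and not with the other knockout had a median of 7.80 in Taf5l-KO and 7.78 in the Taf6l-KO list, and over each whole list the medians were 8.12 and 8.10. By fold enrichment the gained peaks therefore lay near the middle of both lists.

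Their width was that of an ordinary peak of the lists, and the summits of the knockouts lay close together. The median width was 170 bp in Taf5l-KO and 152 bp in Taf6l-KO, against 170 bp and 159 bp over the whole lists and 210 bp and 186 bp for peaks in all 3 genotypes. The summits in the knockouts lay a median of 28 bp apart, with a middle range of 13 to 47 bp and a largest distance of 258 bp, against a median of 21 bp for the peaks in all 3 genotypes. The overlap between the Taf5l-KO and the Taf6l-KO peak was between 16 and 272 bp. Across the 341 regions, the fold enrichments of the 2 knockouts were weakly related, with a Pearson correlation of 0.162 and a Spearman correlation of 0.193, against 0.542 and 0.376 across the 981 peaks in all 3 genotypes. These correlations are across peaks that share their libraries and, for the gained peaks, span a smaller range of strength. The value was higher in Taf5l-KO at 193 regions and higher in Taf6l-KO at 148.

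**Figure D1:**
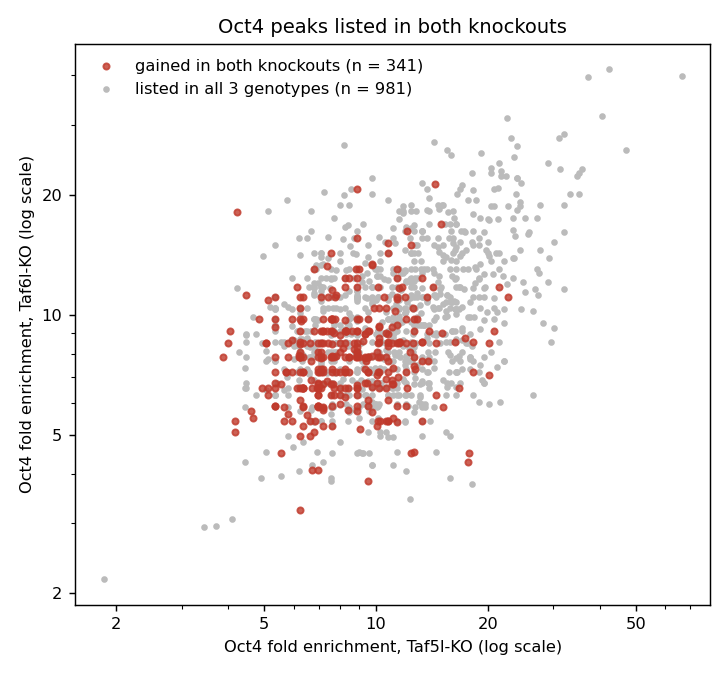
Oct4 fold enrichment in Taf5l-KO (horizontal, log scale) and in Taf6l-KO (vertical, log scale) for each Oct4 peak listed in both knockouts, with the 341 gained peaks in red and the 981 peaks listed in all 3 genotypes in grey. The red points stay at or below 22.7 in Taf5l-KO and 21.4 in Taf6l-KO, and the strongest peaks of both lists are grey.

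Few gained peaks stood near the top of either list. Each knockout list was divided into 10 equal groups by fold enrichment, and the share without a wild-type peak was taken over the peaks listed in both knockouts. In the strongest of the 10 groups of the Taf5l-KO list this share was 5.82%, or 16 of 275, against 45.9% in the group where it was highest. In the strongest group of the Taf6l-KO list it was 5.13%, or 10 of 195, against 42.2% in the group where it was highest. Among the peaks in the strongest 10% of both lists only 1 of 108, or 0.926% (0.0234 to 5.05), was gained. Among those in the weaker 50% of both lists, 105 of 216, or 48.6% (41.8 to 55.5), were.

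The other pairs of lists behaved alike in this respect. Of the peaks in the strongest 10% of both Taf5l-KO and wild type, 1 of 114 lacked Taf6l-KO, and of those in the strongest 10% of both Taf6l-KO and wild type, 1 of 86 lacked Taf5l-KO. In the weaker 50% of these pairs the shares were 61.5% (55.5 to 67.3) and 34.9% (28.2 to 42.1). Absence of a weak peak from the remaining list was common for each of the 3 pairs, and the direction of absence was not tested.

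**Figure D2:**
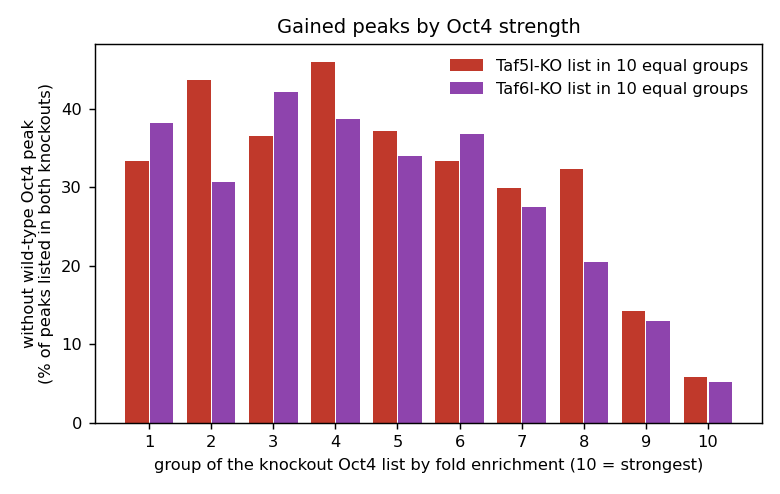
Share of Oct4 peaks listed in both knockouts that have no wild-type Oct4 peak (vertical, %), in 10 equal groups of the Taf5l-KO list (red) and of the Taf6l-KO list (purple) by fold enrichment (horizontal, 10 is the strongest). The share falls to 5.82% and 5.13% in the strongest groups.

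The lists also have a lower limit. Where the local background equals the genome-wide floor (within 0.01), the smallest height listed was 5.30 in Taf5l-KO, 6.26 in Taf6l-KO and 6.38 in wild type. On that floor stood 36.4% of the gained peaks in Taf5l-KO and 52.9% in the Taf6l-KO list, against 35.3% and 43.7% of all peaks of those lists and 24.1% and 32.8% of the peaks found in all 3 genotypes. The share in Taf5l-KO was thus near that of the whole list, and the share in Taf6l-KO was above that of its list. The median −log10 q of the gained peaks was 9.14 in Taf5l-KO and 6.50 in Taf6l-KO, against 8.55 and 7.87 over the whole lists. At the limit set by Taf6l-KO, the 3 gained peaks with the smallest overlap had Taf5l-KO fold enrichments of 5.05 to 10.1, and the 3 nearest peaks outside had 4.48 to 6.02. The gained peak with the smallest overlap, chr2:3532128-3532272, shared 16 bp with its Taf6l-KO peak and had fold enrichments of 6.36 in Taf5l-KO and 5.26 in Taf6l-KO. Just outside the rule, the Taf5l-KO peak chr7:104578207-104578350 missed a Taf6l-KO peak by 8 bp and had a fold enrichment of 5.42. At the limit set by wild type, the 3 nearest gained peaks had Taf5l-KO values of 7.80 to 11 and Taf6l-KO values of 7.20 to 11.2, while the 3 with the smallest overlap outside the rule had 5.36 to 6.73 and 5.86 to 10.4. The gained peak nearest to a wild-type Oct4 peak was chr5:104153370-104153580, 56 bp away (7.80 in Taf5l-KO and 11.2 in Taf6l-KO), and chr10:5971021-5971142 was left out because it shared 36 bp with a wild-type peak (6.73 in Taf5l-KO and 5.86 in Taf6l-KO).

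The strongest gained peak by the mean of both knockouts was chr1:184121420-184121622, with a fold enrichment of 14.4 in Taf5l-KO and 21.4 in Taf6l-KO. It overlapped no H3K4me3, polymerase, TAF, H3K9ac or Myc peak in any genotype. The next, chr2:127431048-127431288, had 22.7 in Taf5l-KO, had 11.1 in Taf6l-KO and overlapped RNAP peaks in both knockouts and an RNAP-ser5 peak in Taf5l-KO. Chr17:9915624-9915823 had 21.4 in Taf5l-KO and 11.7 in Taf6l-KO with no other listed peak. These 3 regions differ in which knockout was the stronger one.

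Balanced values in the knockouts were seen at chr13:56244635-56244842, with 14.9 in Taf5l-KO and 16.9 in Taf6l-KO. It is the only one of the 10 strongest that overlapped a TAF6L-FB region. Chr1:186928961-186929137 (12.1 in Taf5l-KO, 16.3 in Taf6l-KO) overlapped RNAP in all 3 genotypes, and chr1:104990631-104990820 (12.4 in Taf5l-KO, 15.0 in Taf6l-KO) overlapped nothing. The remaining 4 were lopsided. Chr3:97344176-97344397 had 20.8 in Taf5l-KO and 9.14 in Taf6l-KO, chr13:23583927-23584132 had 20.2 and 8.49, chr14:38556329-38556540 had 20.2 and 7.06, and chr17:15345161-15345324 had 8.89 in Taf5l-KO and 20.8 in Taf6l-KO. Among these 10 strongest, 5 overlapped no other listed peak, against 66.3% of all gained peaks and 60.2% of all Taf5l-KO Oct4 peaks. At the lower end, the 5 weakest gained peaks had Taf5l-KO fold enrichments of 4.16 to 6.22, and the Taf6l-KO values lay between 3.24 and 5.51.

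Most gained peaks lay outside H3K4me3 in all genotypes. An H3K4me3 peak of Taf5l-KO overlapped 16 of the 341, or 4.69% (2.71 to 7.51), one of Taf6l-KO overlapped 24, or 7.04% (4.56 to 10.3), and one of wild type overlapped 18, or 5.28% (3.16 to 8.21). Over all Taf5l-KO Oct4 peaks the shares were 8.32%, 8.05% and 8.32% for the lists of Taf5l-KO, Taf6l-KO and wild type. For peaks found in all 3 genotypes they were 9.17% (7.44 to 11.2), 10.2% (8.37 to 12.3) and 9.17% (7.44 to 11.2). The gained peaks thus overlapped H3K4me3 less often than the peaks in all 3 genotypes in each list, with intervals that overlapped. Oct4 peaks of wild type alone, 821 in number, overlapped it more often, at 14.5% (12.2 to 17.1), 15.5% (13.1 to 18.1) and 19.9% (17.2 to 22.7), with intervals above those of the gained peaks in every list.

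Where the genotypes had the same H3K4me3 status at a gained peak, this was mostly joint absence. Of the 32 gained peaks with H3K4me3 in some genotype, 10 had it in all 3, against 142 of 358 among all Taf5l-KO Oct4 peaks. The genotypes differed at the rest of the 32. No genotype listed H3K4me3 at 309 regions, or 90.6%, against 87.9% of all Taf5l-KO Oct4 peaks. All 3 genotypes listed it at 10 regions (2.93%, against 4.8%). Both knockouts listed it without wild type at 2 regions (0.587%, against 1.05%), and wild type alone listed it at 4 (1.17%, against 1.59%). The 2 regions were chr12:77316143-77316316, with H3K4me3 fold enrichments of 3.76 in Taf5l-KO and 3.88 in Taf6l-KO, and chr10:75344741-75344884, with 4.74 and 4.49. All 4 values lay below the medians of their lists on chromosomes 1 to 19, which were 6.29 in Taf5l-KO and 6.55 in Taf6l-KO.

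**Figure D3:**
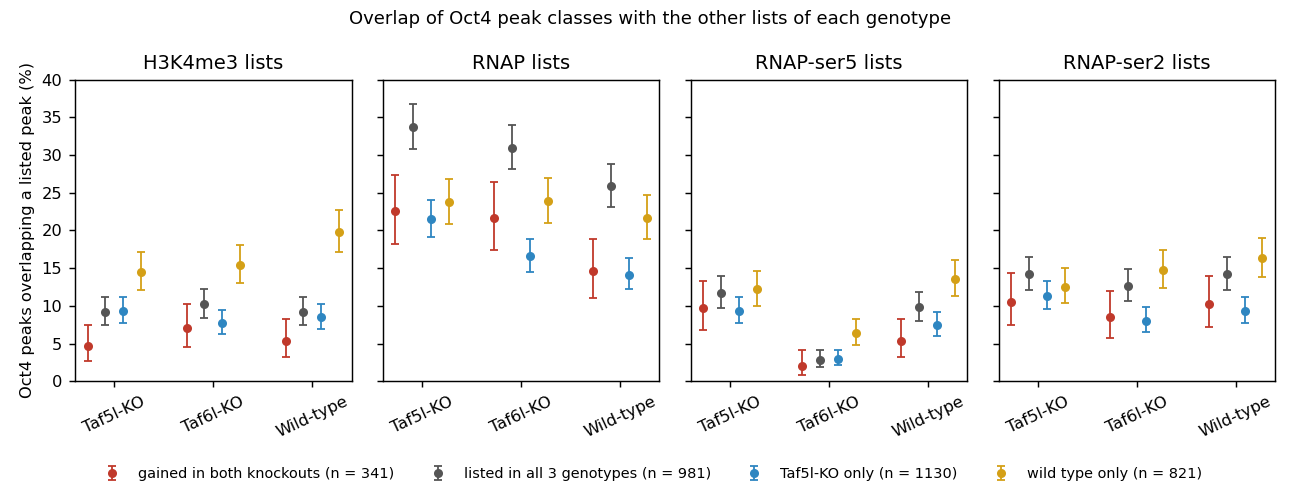
Share of Oct4 peaks (vertical, %) that overlap a listed H3K4me3, RNAP, RNAP-ser5 or RNAP-ser2 peak in Taf5l-KO, Taf6l-KO and wild-type cells, for gained peaks (red), peaks of the Taf5l-KO list found in all 3 genotypes (dark grey), Taf5l-KO peaks found in no other genotype (blue) and wild-type peaks found in no knockout (yellow), with exact 95% binomial intervals. At the gained peaks RNAP stands at 22.6% and 21.7% in the knockouts and 14.7% in wild type.

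RNAP was the most frequent companion of the gained peaks, and it was listed there more often in the knockouts than in wild type. An RNAP peak overlapped 77 of 341 in Taf5l-KO, or 22.6% (18.3 to 27.4), and 74 in Taf6l-KO, or 21.7% (17.4 to 26.5), against 50 in wild type, or 14.7% (11.1 to 18.9). The intervals overlapped slightly, and 1 library per genotype allows no test. Over all Taf5l-KO Oct4 peaks the shares were 27.0% in Taf5l-KO, 23.1% in Taf6l-KO and 20.0% in wild type, which have the same order. At Oct4 peaks found in all 3 genotypes they were 33.7% (30.8 to 36.8), 31.0% (28.1 to 34.0) and 25.9% (23.2 to 28.8). At Oct4 peaks of Taf5l-KO alone they were 21.5%, 16.5% and 14.2%, and at those of Taf6l-KO alone 21.1%, 24.5% and 17.2%. Higher RNAP shares in both knockouts than in wild type were thus not particular to the gained peaks. At wild-type-only Oct4 peaks the 3 lists were close, with 23.8% (20.9 to 26.8) in Taf5l-KO, 23.9% (21 to 26.9) in Taf6l-KO and 21.7% (18.9 to 24.7) in wild type.

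By region, RNAP was listed in both knockouts and not in wild type at 23 gained peaks, or 6.74% (4.32 to 9.95), against 5.55% of all Taf5l-KO Oct4 peaks. It was listed in wild type alone at 5, or 1.47% (0.478 to 3.39), against 2.4%. All 3 genotypes listed it at 35 (10.3%, against 14.1%) and none at 243 (71.3%, against 67.1%). The share of 6.74% is near its background, and the same pattern made up 6.93% (5.42 to 8.71) of the peaks found in all 3 genotypes. At wild-type-only Oct4 peaks the same 2 patterns stood at 3.29% (2.18 to 4.75) and 2.19% (1.30 to 3.44).

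Library depth moved with these shares. After scaling, the RNAP libraries amounted to 1.21 times the wild-type tags in Taf5l-KO and 1.14 times in Taf6l-KO. The knockout RNAP lists were nevertheless the shorter ones, with 0.705 and 0.914 times the wild-type number of peaks and 0.900 and 0.975 times its covered length on chromosomes 1 to 19. In each genotype the RNAP and Oct4 peaks were called against the same input library. The part of depth and of the shared input in the RNAP shares was not tested. The RNAP peaks at the gained regions were of ordinary strength within their lists, with median fold enrichments of 5.03 in Taf5l-KO, 4.95 in Taf6l-KO and 4.54 in wild type, against 4.77, 4.94 and 4.34 over each whole list.

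The RNAP shares of the knockouts and wild type stood furthest apart at the stronger gained peaks and closest at the weakest, a pattern that was not tested. The 341 regions were divided into 3 equal groups by the mean Oct4 fold enrichment of both knockouts. In the strongest group RNAP overlapped 23.9% (16.4 to 32.8) of the peaks in Taf5l-KO, 22.1% (14.9 to 30.9) in Taf6l-KO, and 11.5% (6.27 to 18.9) in wild type. In the middle group the shares were 22.8% and 20.2% in the knockouts and 12.3% (6.88 to 19.7) in wild type. In the weakest group they were 21.1% (14.0 to 29.7) in Taf5l-KO, 22.8% (15.5 to 31.6) in Taf6l-KO, and 20.2% (13.2 to 28.7) in wild type. The knockout shares were level over the 3 groups, and the wild-type share was the one that was lower among stronger peaks, with intervals that overlapped between groups. The peaks found in all 3 genotypes also had closer shares in their weakest group, with 31.2% in Taf5l-KO, 27.2% in Taf6l-KO and 26.3% in wild type, against 40.4%, 37.0% and 30.6% in their strongest group. A narrower gap at the weakest peaks was thus not particular to the gained ones. In that class each list had its highest RNAP share in the strongest group.

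**Figure D4:**
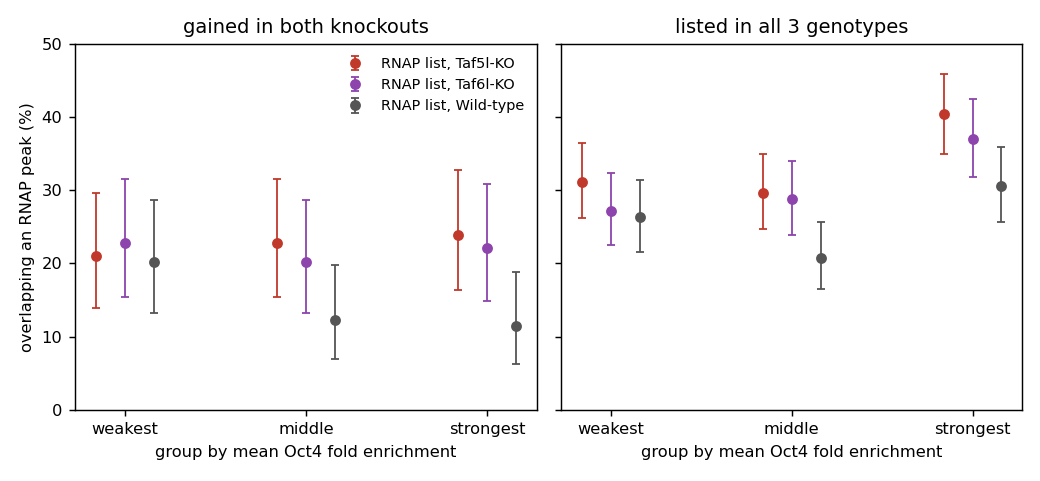
Share of Oct4 peaks that overlap an RNAP peak (vertical, %) in Taf5l-KO (red), Taf6l-KO (purple) and wild type (grey) in 3 equal groups by mean Oct4 fold enrichment (horizontal), for the gained peaks (left panel) and the peaks found in all 3 genotypes (right panel), with exact 95% binomial intervals. Left, wild type stands at 20.2% in the weakest and 11.5% in the strongest group while the knockouts stay between 20.2% and 23.9%.

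The regions with RNAP in both knockouts and not in wild type were led by chr2:127431048-127431288, where RNAP had a fold enrichment of 4.64 in Taf5l-KO and 6.12 in Taf6l-KO. At chr13:56244635-56244842 RNAP had 3.96 in Taf5l-KO, against 3.61 in Taf6l-KO. Chr17:15345161-15345324 had 3.92 and 5.23, together with H3K4me3 in Taf6l-KO and wild type and RNAP-ser2 in wild type. The RNAP values at these 3 regions lay between 3.61 and 6.12.

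Others paired RNAP with a further mark. Chr5:110271507-110271774, with Oct4 at 14.2 in Taf5l-KO and 11.8 in Taf6l-KO, had RNAP at 4.31 and 3.93. It overlapped listed H3K4me3 (6.15) and RNAP-ser5 (3.6) peaks in Taf5l-KO alone. Chr11:79460042-79460242 (Oct4 at 13.3 in Taf5l-KO and 8.54 in Taf6l-KO) had RNAP at 5.46 and 4.18 and RNAP-ser5 in Taf5l-KO (4.72). Chr5:116888465-116888653 (Oct4 at 13.8 and 7.65) had RNAP at 5.42 and 4.49 and H3K4me3 in Taf6l-KO (5.09). The strongest RNAP value in Taf5l-KO among the 10 such regions with the strongest Oct4, 7.23, was at chr2:122196264-122196418, which had 4.25 in Taf6l-KO. In Taf6l-KO the highest, 6.12, was at the leading region on chromosome 2.

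RNAP at gained peaks was mostly found without H3K4me3. In Taf5l-KO 66 regions (19.4%, against 20.6% of all Taf5l-KO Oct4 peaks) had RNAP and no H3K4me3, in Taf6l-KO 56 (16.4%, against 17.1%) and in wild type 40 (11.7%, against 14.9%). Taking all genotypes and polymerase forms together, 79 regions (23.2%, against 25.7% of all Taf5l-KO Oct4 peaks) had polymerase without H3K4me3, 29 (8.50%, against 10.2%) had both and 3 (0.880%, against 1.86%) had H3K4me3 alone. The remaining 230 (67.4%, against 62.2%) had neither, and 226 of them, 66.3% (61.0 to 71.3) of the gained peaks, had none of the other listed peaks, against 60.2% of all Taf5l-KO Oct4 peaks. At peaks found in all 3 genotypes that share was 50.6% (47.4 to 53.7), with an interval below that of the gained peaks, and at peaks of Taf5l-KO alone it was 67.8% (65.0 to 70.5).

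The phosphorylated forms were listed less often than RNAP. RNAP-ser5 overlapped 33 gained peaks in Taf5l-KO, or 9.68% (6.76 to 13.3), 7 in Taf6l-KO, or 2.05% (0.829 to 4.18), and 18 in wild type, or 5.28% (3.16 to 8.21). Over all Taf5l-KO Oct4 peaks the shares were 11.2%, 3.69% and 8.96%. The low Taf6l-KO value went with the shallowest library, of 1702363 unique tags, against 8807133 in Taf5l-KO and 3871824 in wild type, and the part of depth in this order was not tested. RNAP-ser2 overlapped 36 regions in Taf5l-KO, or 10.6% (7.50 to 14.3), 29 in Taf6l-KO, or 8.50% (5.77 to 12), and 35 in wild type, or 10.3% (7.25 to 14.0), against 13.3%, 10.5% and 12.2% of all Taf5l-KO Oct4 peaks. For RNAP-ser2 the 3 genotypes were within each other's intervals. All 3 polymerase forms met at 19 gained peaks in Taf5l-KO, 7 in Taf6l-KO and 16 in wild type, or 5.57%, 2.05% and 4.69%, against 8.15%, 3.42% and 6.39% of all Taf5l-KO Oct4 peaks.

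The tagged TAF proteins were seldom listed at the gained peaks. A TAF6L-FB region overlapped 22 of 341, or 6.45% (4.09 to 9.61), against 8.08% of all Taf5l-KO Oct4 peaks and 12.4% (10.4 to 14.7) of those found in all 3 genotypes. Line 1 gave 15 of the 22, line 2 gave 11, and 4 were in both lines, so without line 1 the share was 3.23% and without line 2 it was 4.40%. A TAF5L-FB region overlapped 3, or 0.880% (0.182 to 2.55), against 1.62% of all Taf5l-KO Oct4 peaks. All 3 came from line 1, lay at TAF6L-FB regions and were absent in line 2, whose list held 7 peaks on chromosomes 1 to 19, so without line 1 the count was 0. No BirA peak overlapped a gained peak, and none overlapped any of the 2957 Taf5l-KO Oct4 peaks. The BirA list held only 24 peaks on chromosomes 1 to 19. As the tagged lines are labelled wild type, these lists show where the TAF proteins were found when both were present, and not in the knockouts.

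TAF6L-FB was listed in each strength group of the gained peaks, least often in the strongest and most often in the weakest. It overlapped 3 peaks of the strongest group, or 2.65% (0.551 to 7.56), 7 of the middle group, or 6.14% (2.50 to 12.2), and 12 of the weakest group, or 10.5% (5.56 to 17.7). The intervals of the strongest and the weakest group overlapped. At peaks found in all 3 genotypes the shares were 16.5% (12.7 to 21) in the strongest group and 10.4% (7.31 to 14.2) in both the middle and the weakest group, again with overlapping intervals. The strongest group thus had the highest share in that class and the lowest among the gained peaks, a contrast that was not tested. Polymerase was frequent where TAF6L-FB was. RNAP overlapped 16 of the 22 in Taf5l-KO, or 72.7% (49.8 to 89.3), 13 in Taf6l-KO, or 59.1% (36.4 to 79.3), and 11 in wild type, or 50.0% (28.2 to 71.8). At the 319 gained peaks without TAF6L-FB the shares were 19.1% (14.9 to 23.9), 19.1% (14.9 to 23.9) and 12.2% (8.84 to 16.3), below the intervals of the 22 in each genotype. The peaks found in all 3 genotypes showed a like contrast, with 66.4%, 61.5% and 47.5% with TAF6L-FB and 29.1%, 26.7% and 22.8% without.

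Of the 22 regions 17 had polymerase in some form, 9 had RNAP in all 3 genotypes and 6 had H3K4me3 in some genotype. Over all Taf5l-KO Oct4 peaks, with or without TAF, these shares were 36.0%, 14.1% and 12.1%. Frequent RNAP was not particular to the gained ones among TAF6L-FB peaks. At the 239 Taf5l-KO Oct4 peaks with TAF6L-FB, it overlapped 65.7% in Taf5l-KO, 59.4% in Taf6l-KO and 51.0% in wild type. The region at chr13:56244635-56244842 had a TAF6L-FB fold enrichment of 4.53 in line 1 and RNAP in both knockouts. Chr9:57358438-57358656 (Oct4 at 12.9 in Taf5l-KO and 9.79 in Taf6l-KO) had 4.58 in line 1 and RNAP in Taf5l-KO alone. The 4 regions listed in both lines were chr5:104153370-104153580 (TAF6L-FB at 4.31 in line 1 and 6.61 in line 2), chr1:122983851-122984005 (3.40 and 4.53), chr10:126409029-126409309 (4.55 and 3.89) and chr4:55488214-55488547 (4.60 and 5.59). RNAP was listed in all 3 genotypes at the first and the last of these, in Taf5l-KO and wild type at chr1:122983851-122984005, and in both knockouts at chr10:126409029-126409309, which also had H3K4me3 in all 3 genotypes.

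Regions listed in 1 line included 2 with strong H3K4me3. Chr15:38007422-38007665 (Oct4 at 6.24 in Taf5l-KO and 9.79 in Taf6l-KO) had H3K4me3 at 11.3 in Taf5l-KO, 13.1 in Taf6l-KO and 8.85 in wild type, and RNAP at 8.10, 11 and 6.91. Chr2:51926917-51927086 (Oct4 at 9.78 and 7.89) overlapped a listed H3K4me3 peak in Taf6l-KO alone (13.1). RNAP stood there at 8.37 in Taf5l-KO, 8.93 in Taf6l-KO and 5.49 in wild type. That H3K4me3 peak spans chr2:51926693-51930815, with the Oct4 peak near its left end. Whether Taf5l-KO or wild type had H3K4me3 close by without overlap is not given here. Chr12:77316143-77316316, named above for H3K4me3 in both knockouts, had TAF6L-FB at 3.88 in line 2 and no polymerase. The 3 regions with TAF5L-FB had values of 2.99 to 4.95 for it, and the TAF6L-FB values at all 22 ranged from 3.33 to 6.61.

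H3K9ac and Myc were nearly absent from the gained peaks. H3K9ac, an acetylation mark of active promoters, was listed at 0 of 341 in Taf5l-KO and 0 in Taf6l-KO, which allows a share of up to 0.880% by the limit of 3 counts and 1.08% by the exact interval, and at 2 in wild type, or 0.587% (0.0711 to 2.1), against 0.0%, 0.101% and 0.71% of all Taf5l-KO Oct4 peaks. Myc, which activates genes of cell growth, was listed at 0 in each genotype, against 0.0676%, 0.0338% and 0.304% of all Taf5l-KO Oct4 peaks. The knockout lists were short, with 110 and 880 H3K9ac peaks and 32 and 22 Myc peaks on chromosomes 1 to 19, so a difference at these regions was not detectable.

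The gained peaks lay farther from H3K4me3 than the Oct4 peaks found in all 3 genotypes. The median distance to the nearest H3K4me3 peak was 19.6 kb in Taf5l-KO, 19.1 kb in Taf6l-KO and 19.3 kb in wild type, against 13.9 kb, 14.3 kb and 13.7 kb for the peaks found in all 3 genotypes. Within 10 kb of an H3K4me3 peak lay 37.2% (32.1 to 42.6) of the gained peaks in Taf5l-KO, 38.4% (33.2 to 43.8) in Taf6l-KO and 37.8% (32.7 to 43.2) in wild type, against 43.3%, 43.4% and 43.7% of the peaks in all 3 genotypes. Peaks of Taf5l-KO alone had medians of 20.0 kb, 21.4 kb and 20.2 kb, close to those of the gained peaks. The nearest wild-type Oct4 peak was a median of 232 kb away, with 14 gained peaks closer than 1000 bp and 33 closer than 10000 bp (4.11% and 9.68%). Peaks of Taf5l-KO alone, which by their definition also overlap no wild-type peak, were much alike, with a median of 243 kb and shares of 3.81% and 9.12%.

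**Figure D5:**
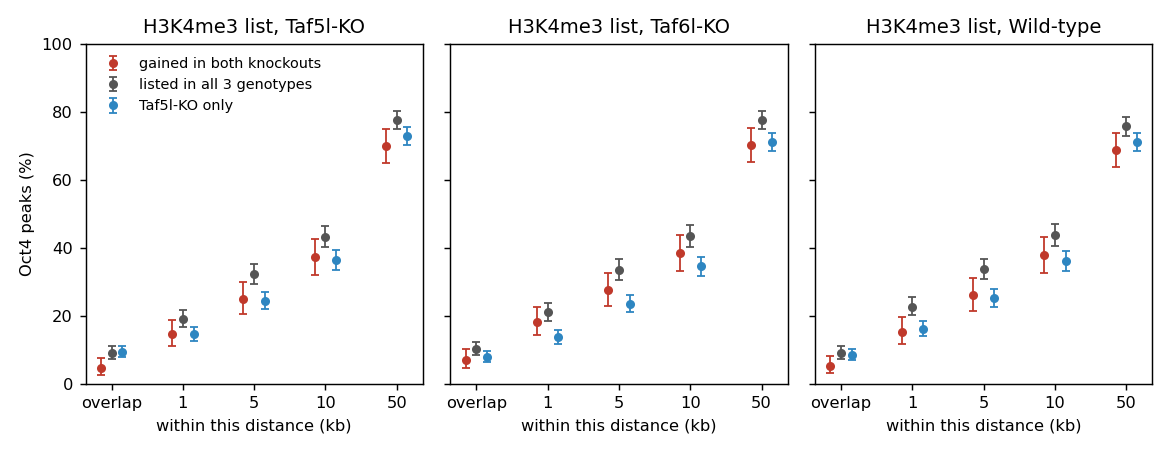
Share of Oct4 peaks (vertical, %) that overlap an H3K4me3 peak or lie within 1, 5, 10 or 50 kb of one (horizontal), for the H3K4me3 lists of Taf5l-KO, Taf6l-KO and wild type, with exact 95% binomial intervals. The gained peaks (red) lie below the peaks found in all 3 genotypes (grey) at each distance, with intervals that overlap at most of them, and Taf5l-KO peaks found in no other genotype (blue) are drawn beside them. Within 10 kb in Taf5l-KO the red and grey points stand at 37.2% and 43.3%.

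They were scattered over the genome with few groups. Only 8 of the 341 had another gained peak within 50 kb and 100 had one within 1 Mb, with a median distance of 2007 kb and a smallest one of 6896 bp. The densest stretch of at most 1 Mb, chr17:70753196-71216239, held 3 gained peaks, among 5 Taf5l-KO and 2 wild-type Oct4 peaks. Every one of the 19 chromosomes held at least 9. Chromosome 1 held 50, or 14.7% of the gained peaks, while it held 10.7% of the Taf5l-KO, 12.5% of the Taf6l-KO and 10.4% of the wild-type Oct4 list. Of its 317 Taf5l-KO Oct4 peaks 15.8% (11.9 to 20.3) were gained, against 7.14% (3.32 to 13.1) of the 126 on chromosome 8, where the share was lowest. For the 18 chromosomes other than chromosome 1 the interval includes the 11.5% of the whole list. The intervals were not widened for looking at 19 chromosomes, and the higher share on chromosome 1 was not tested. Counted in the Taf6l-KO list, 50 of the 252 Oct4 peaks on chromosome 1 were gained, against 342 of 2008 in that whole list.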

How the data were processed

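The 26 peak lists of 32 samples were used, 1 per immunoprecipitated library. Groups were taken from the sample labels. The submitters' processing notes name Bowtie2 2.3.2, deepTools 2.5.3 and the build mm9. Per the file headers, MACS2 2.1.1.20160309 called each library's peaks against an input at a q-value limit of 0.05, with a tag length of 50 bp and 1 tag kept per position. H3K4me3, polymerase and H3K9ac lists used broad linking with a second cutoff of 0.1, per the file headers, so their peaks are wider than those of Oct4. The larger of ChIP and input was scaled to the smaller, per the file headers. The deposited columns are the pileup signal (height in tags), the fold enrichment (a ratio to the local background), −log10 p and −log10 q, all as the authors' peak caller gave them, and they were used only to describe, rank or filter peaks.

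Oct4 peaks were classed by an overlap of at least 1 bp. The TAF regions pool the 2 lines of a protein and leave out any that touches a BirA peak. Shares, distances between edges and exact binomial intervals were computed with Python 3.11.15, pandas 2.3.3 and scipy 1.17.1. No p-value was computed. The code of the class rule was run on the 2957 Taf5l-KO peaks and on slightly shifted copies of part of them. It returned 300 of 300 simulated gained peaks, which checks the overlap code only. It cannot show whether a peak missing from the wild-type list was missing from the cells. Named regions are the 10 strongest and 5 weakest by mean fold enrichment, the 12 strongest at TAF regions, up to 10 each with RNAP or H3K4me3 in both knockouts alone, and the one nearest to a wild-type Oct4 peak. Some of these are given as ranges, and the 2 regions with the most other lists, the densest stretch and the chromosomes singled out were picked after their values were seen. The members, rules and lists were chosen with earlier results of these data known. Gene and motif lists had been drawn up, but no mm9 annotation or genome was used here.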

Additional observations from a re-analysis of the deposited data

How the results depend on the processing

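No paired analysis was possible because there is 1 library per antibody and genotype. The count of 341 gained peaks was 232 for knockout peaks whose −log10 q was 5 or more, 249 with the Taf5l-KO list shortened to the length of the Taf6l-KO list, 302 with 50% of the peak covered, 327 with no wild-type peak within 1000 bp, 353 with chromosomes X and Y and 331 with peaks under 1000 bp apart merged. Of 180 values under an alternative, 155 stayed within the 95% interval of the share reported (or within 1.5 times the count) and 25 did not. For shares in the order Taf5l-KO, Taf6l-KO and wild type, counting only those H3K4me3 and polymerase peaks whose own −log10 q was 5 or more put RNAP at 7.92%, 7.33% and 4.99%, RNAP-ser5 at 0.88%, 0.587% and 0.587%, RNAP-ser2 at 1.47%, 0.88% and 1.47%, and H3K4me3 at 3.52% in Taf6l-KO and 2.93% in wild type. Counting listed peaks within 1000 bp gave 14.7%, 18.2% and 15.2% for H3K4me3, 27.6% in Taf6l-KO and 19.4% in wild type for RNAP, 9.68% in wild type for RNAP-ser5, and 16.4% in Taf5l-KO and 15.2% in Taf6l-KO for RNAP-ser2. At the summit, RNAP in Taf6l-KO was 16.7%. With the shortened Taf5l-KO list, RNAP-ser5 in Taf6l-KO was 0.803%. RNAP was listed more often in both knockouts than in wild type under each of 13 settings, the one reported included. All of them reuse the same 3 RNAP libraries, so they are not independent of each other. TAF6L-FB was 1.17% and TAF5L-FB 0% for regions found in both lines, and leaving out 1 line gave 3.23% to 4.40% for TAF6L-FB and 0% to 0.88% for TAF5L-FB. The settings with the 3 lists of an antibody shortened to equal length and without chromosome 1 (291 gained peaks) were chosen after seeing the data. The cause of these shifts was not tested beyond what each setting does by construction (fewer or wider regions counted). Depth limits what absence from a list means, since a weak peak can fall below the threshold in 1 library.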

Other observations

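The gained peaks that met many other lists formed a small group. Of the 341, 36 overlapped a peak in 5 or more of the 23 other lists, or 10.6% (7.50 to 14.3), against 15.0% (13.7 to 16.3) of all Taf5l-KO Oct4 peaks. H3K4me3 was listed in some genotype at 19 of the 36 and TAF6L-FB at 11. Lists of both are among the 23 that picked the 36, so the selection itself raised these counts. Over all Taf5l-KO Oct4 peaks, H3K4me3 in some genotype stood at 12.1% and TAF6L-FB at 8.08%. The mean Oct4 fold enrichment of both knockouts had a median of 7.77 at the 36 regions, against 8.35 for the 226 regions with no other listed peak. The highest number of lists, 13, was reached at chr1:180268349-180268533 (Oct4 at 7.69 in Taf5l-KO and 9.00 in Taf6l-KO) and at chr11:6316731-6316852 (5.78 and 5.64), both singled out after their values were seen.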
